A study of Mus musculus with 6 samples.

Results

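The 8 genes described are Cd74, H2-Aa, H2-Ab1, H2-Eb1, H2-DMa, H2-Oa, H2-Ob and Ciita, the MHC class II genes and their regulator, out of 18194 genes measured on the same arrays. All 8 were measured. They were chosen by symbol after their measured levels in WT LMPP and WT LSK FLT3- were known from these arrays, so the difference between those fractions is given here as a description with no test. E2A-KO LMPP against WT LMPP shares the 2 WT LMPP arrays with that choice, which stands beside every test of the genes below.

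RNA was measured on 6 Affymetrix arrays in 3 groups of 2. E2A-KO LMPP came from adult bone marrow of mice without E2A on a C57BL/6 background, and WT LMPP from adult bone marrow of C57BL/6 mice. Both were sorted as lineage-negative, SCA1-positive and KIT-positive cells with high surface FLT3, the lymphoid-primed multipotent progenitors. WT LSK FLT3- came from adult bone marrow of C57BL/6 mice, sorted alike except that surface FLT3 was absent, which is where hematopoietic stem cells are found. Tcf3 encodes the E2A proteins, helix-loop-helix factors that bind E boxes in DNA. Knockout LSK FLT3- cells were not analysed here. The labels give neither the knockout allele nor the number of mice, nor whether both arrays of a group stem from separate animals. The p-values therefore reflect array-to-array spread alone, and this could be technical.

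MHC class II molecules present peptides from endosomes to CD4+ T cells and are best known on dendritic cells, B cells and macrophages. The alpha and beta chains assemble with the invariant chain, DM then exchanges the invariant chain remnant for peptide, and DO restrains DM. Transcription of the classical chains depends on CIITA, which does not bind DNA itself but is recruited by factors assembled on X and Y boxes in their promoters.

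The promoters were read to show whether the genes share those boxes. The RefSeq table, on GRCm38.p6, held windows from 250 bases before to 50 bases after the start site for 5 of the 8 genes, with 2 start sites for H2-DMa. Windows of H2-Aa, H2-Eb1, H2-Oa and H2-Ob, and 1 of the 2 of H2-DMa, follow 5′ to 3′ in the direction of transcription. Capitals mark an X box core (GCAAC) followed by a Y box core (ATTGG) at 20 to 40 bases.
H2-Aa, chr17:34287774-34288073, minus strand: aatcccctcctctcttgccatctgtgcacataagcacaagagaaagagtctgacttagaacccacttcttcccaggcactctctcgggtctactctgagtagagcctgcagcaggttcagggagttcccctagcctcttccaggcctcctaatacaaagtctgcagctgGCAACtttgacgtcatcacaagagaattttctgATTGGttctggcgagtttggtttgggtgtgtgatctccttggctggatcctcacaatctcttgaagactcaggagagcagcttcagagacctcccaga
H2-Eb1, chr17:34305617-34305916, plus strand: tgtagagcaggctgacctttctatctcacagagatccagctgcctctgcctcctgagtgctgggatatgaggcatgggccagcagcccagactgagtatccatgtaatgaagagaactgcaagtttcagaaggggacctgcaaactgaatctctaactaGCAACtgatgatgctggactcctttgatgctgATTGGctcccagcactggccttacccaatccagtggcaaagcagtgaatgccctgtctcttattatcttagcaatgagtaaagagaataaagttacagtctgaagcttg
H2-Oa, chr17:34092129-34092428, plus strand: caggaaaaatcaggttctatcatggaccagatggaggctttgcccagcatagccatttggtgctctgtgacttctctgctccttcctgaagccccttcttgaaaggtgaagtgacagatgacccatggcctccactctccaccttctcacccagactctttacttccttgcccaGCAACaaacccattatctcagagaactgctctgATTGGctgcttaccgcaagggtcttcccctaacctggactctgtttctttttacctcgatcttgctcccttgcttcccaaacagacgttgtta
H2-Ob, chr17:34238655-34238954, plus strand: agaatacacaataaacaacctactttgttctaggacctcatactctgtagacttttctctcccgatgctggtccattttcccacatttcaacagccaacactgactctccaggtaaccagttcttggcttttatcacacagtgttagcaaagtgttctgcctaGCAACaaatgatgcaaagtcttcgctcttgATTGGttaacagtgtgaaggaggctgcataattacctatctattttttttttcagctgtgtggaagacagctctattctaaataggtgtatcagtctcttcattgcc
H2-DMa, chr17:34122582-34122881, plus strand: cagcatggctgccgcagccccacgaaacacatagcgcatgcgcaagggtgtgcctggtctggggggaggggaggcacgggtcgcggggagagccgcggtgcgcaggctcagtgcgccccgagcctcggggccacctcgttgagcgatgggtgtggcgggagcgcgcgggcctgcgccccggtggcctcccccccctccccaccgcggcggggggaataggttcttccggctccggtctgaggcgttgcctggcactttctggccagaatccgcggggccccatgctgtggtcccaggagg

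The X core and Y core stood in this order in 4 of the 5 genes with a window, and in 1.01% of all 32851 promoter windows searched the same way on both strands. The gap between the cores was 28 bases in H2-Aa, 27 in H2-Eb1, 28 in H2-Oa and 25 in H2-Ob. Neither window of H2-DMa held the pair at that spacing. Only exact letters in these windows were searched, so this does not show that H2-DMa lacks the boxes. Single cores were common, with GCAAC in 35.2% and ATTGG in 37.4% of all windows. The longer form CTGATTGG was present in H2-Aa, H2-Eb1 and H2-Oa, against 4.10% of all windows. An E box of the form CAGCTG stood in H2-Aa, H2-Eb1 and H2-Ob, against 16.3% of all windows, and any E box (CANNTG) in 72.3%. In H2-Eb1 and in H2-Ob a CANNTG match overlapped the X core. These are matches of letters in 1 window per start site, and no factor's binding was measured.

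The sort was visible in the RNA. Flt3 was at 10.70 and 10.76 (log2 intensity) on the E2A-KO LMPP arrays, 10.80 on both WT LMPP arrays, and 8.87 and 8.76 on the WT LSK FLT3- arrays. Kit, which marks all the sorted fractions, was at 8.85 and 8.47 on E2A-KO LMPP, 9.05 and 8.91 on WT LMPP, and 10.05 and 10.38 on WT LSK FLT3-. Tcf3 differed by -0.23 between E2A-KO LMPP and WT LMPP (limma, adjusted p = 0.4995), and whether its probe set lies in the targeted part is not given, so it does not check the genotype label. Array medians were 4.04 in E2A-KO LMPP, 4.01 in WT LMPP, and 3.91 and 3.90 in WT LSK FLT3-. The distributions differed between fractions, with upper quartiles of 5.78 to 5.82 in both LMPP groups, against 6.13 and 6.15 in WT LSK FLT3-.

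The invariant chain and the classical alpha and beta chains were high in both kinds of LMPP and lower in WT LSK FLT3-. Each value is the log2 RMA intensity of 1 probe set, and levels are not compared between genes. In these bulk samples, fewer cells of a type and less RNA per cell cannot be told apart.

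Cd74, the invariant chain that chaperones class II dimers to endosomes, was at 8.23 and 7.96 in E2A-KO LMPP, 8.49 and 8.44 in WT LMPP, and 5.47 and 5.47 in WT LSK FLT3-. The 3 groups did not overlap. WT LMPP exceeded WT LSK FLT3- by 2.99 (log2, SE 0.14), a 7.96-fold difference and the 5th highest of the 18194 genes. E2A-KO LMPP exceeded WT LSK FLT3- by 2.62, or 6.16-fold.

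H2-Aa, the I-A alpha chain, was at 9.90 and 9.63 in E2A-KO LMPP, 10.38 and 10.12 in WT LMPP, and 7.29 and 7.82 in WT LSK FLT3-. Its 2 LSK FLT3- arrays lay farther apart than those of any other of the 8 genes, yet both were below every LMPP array. The stage difference, WT LMPP minus WT LSK FLT3-, was 2.69 (SE 0.20), or 6.46-fold, the 9th highest of all genes. H2-Ab1, the I-A beta chain that pairs with it, was at 8.70 and 8.31 in E2A-KO LMPP, 9.01 and 8.86 in WT LMPP, and 6.24 and 6.23 in WT LSK FLT3-. Its stage difference was 2.70 (SE 0.16), or 6.52-fold, the 8th highest. For both chains the 3 groups were apart, with E2A-KO LMPP between the others and nearer to WT LMPP.

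H2-Eb1, the I-E beta chain, was at 8.42 and 8.41 in E2A-KO LMPP, 8.63 and 8.78 in WT LMPP, and 5.74 and 5.98 in WT LSK FLT3-. It too had all E2A-KO LMPP values below all WT LMPP values, and both far above WT LSK FLT3-. Its stage difference was 2.85 (SE 0.14), or 7.19-fold, the 6th highest. E2A-KO LMPP exceeded WT LSK FLT3- by 2.21 in H2-Aa, 2.27 in H2-Ab1 and 2.55 in H2-Eb1.

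The peptide-loading genes did not share this size of difference. H2-DMa, the alpha chain of the peptide editor DM, was at 8.53 and 8.47 in E2A-KO LMPP, 8.49 and 8.33 in WT LMPP, and 8.34 and 8.37 in WT LSK FLT3-. The WT LMPP and WT LSK FLT3- arrays overlapped, and their means differed by 0.05 (SE 0.13). H2-Oa, the alpha chain of DO, was at 6.55 and 7.10 in E2A-KO LMPP, 7.09 and 7.03 in WT LMPP, and 6.48 and 6.55 in WT LSK FLT3-. The E2A-KO LMPP arrays spanned nearly the whole range between the others, with 1 beside WT LSK FLT3- and 1 just above WT LMPP. The stage difference was 0.55 (SE 0.18).

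H2-Ob, the beta chain of DO, was at 7.32 and 7.80 in E2A-KO LMPP, 7.18 and 7.00 in WT LMPP, and 5.91 and 6.19 in WT LSK FLT3-. It was the 1 gene of the 8 whose E2A-KO LMPP values both lay above both WT LMPP values. WT LMPP exceeded WT LSK FLT3- by 1.04 (SE 0.19), or 2.06-fold, and E2A-KO LMPP exceeded WT LSK FLT3- by 1.51, or 2.85-fold. A probe set that matches H2-Ob and another symbol, and so was not used, gave 4.51 and 4.48 in E2A-KO LMPP, 3.66 and 4.29 in WT LMPP, and 3.86 and 3.83 in WT LSK FLT3-. That probe set also had both E2A-KO LMPP values on top, while its WT LMPP and WT LSK FLT3- values overlapped.

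Ciita, the class II transactivator, was low on every array. It was at 3.34 and 3.55 in E2A-KO LMPP, 3.77 and 3.91 in WT LMPP, and 3.30 and 3.63 in WT LSK FLT3-, below the array median on 6 of 6 arrays. Differences in this range of the arrays are compressed. WT LMPP lay above both other groups, by 0.38 (SE 0.16) over WT LSK FLT3-, while E2A-KO LMPP and WT LSK FLT3- overlapped, with a difference of -0.02 (SE 0.16). The other 2 probe sets of Ciita had lower means over the 6 arrays, with stage differences of 0.28 and 0.21. Their differences of E2A-KO LMPP minus WT LMPP were -0.07 and 0.01.

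**Figure D1:**
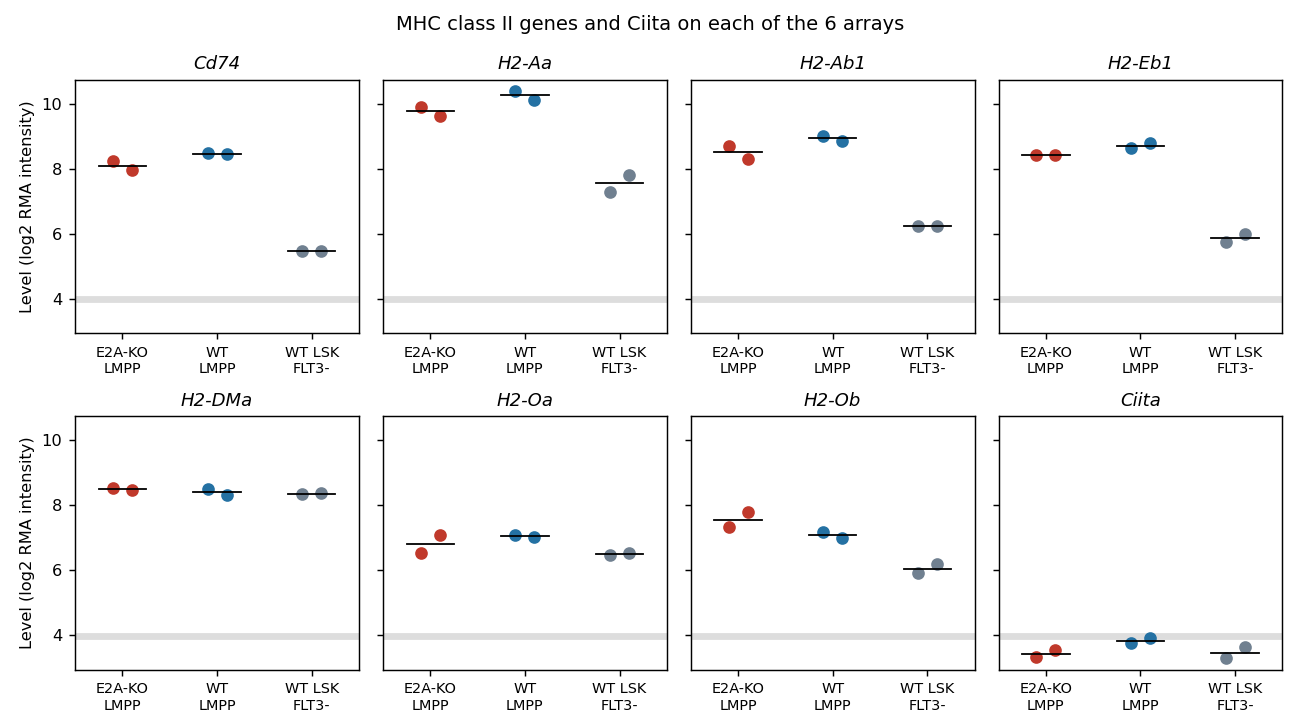
Log2 RMA intensity (y axis) of the probe set used for each of the 8 genes, with 1 point per array and a line at the mean of the 2 arrays, for E2A-KO LMPP, WT LMPP and WT LSK FLT3- from left to right; the grey band spans the 6 array medians. Cd74, H2-Aa, H2-Ab1 and H2-Eb1 are high in both LMPP groups, H2-DMa is level, and Ciita lies below the band or at its lower edge.

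Over the 8 genes, the stage difference had a median of 1.87 against -0.01 over all genes. WT LMPP arrays lay wholly above WT LSK FLT3- arrays in 7 of 8 genes, and in 32.4% of all genes. The corresponding count for E2A-KO LMPP above WT LSK FLT3- was 6 of 8, against 32.9% of all genes, with a median difference of 1.86. Both comparisons share the WT LSK FLT3- arrays, and nothing is read from the stage count, since that comparison chose the genes.

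E2A-KO LMPP against WT LMPP was the comparison the study set out to make. None of the 8 genes passed the threshold of 0.05 on limma's p-values adjusted over all 18194 genes, against 1.37% of all genes (250). Without adjustment, 5 of the 8 had p under 0.05, as did 2665 of all genes. E2A-KO LMPP arrays lay wholly below WT LMPP arrays in 5 of 8 genes, against 22.8% of all genes, and wholly above in 1 of 8, against 18.8%. The median difference over the 8 was -0.33, against -0.02 over all genes.

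The classical chains and the invariant chain were lower in E2A-KO LMPP without passing the adjusted threshold. Cd74 differed by -0.37 (SE 0.14, 95% interval -0.68 to -0.06, adjusted p = 0.265). For H2-Aa the difference was -0.49 (SE 0.20, interval -0.93 to -0.04, adjusted p = 0.299), and for H2-Ab1 it was -0.43 (SE 0.16, interval -0.79 to -0.08, adjusted p = 0.249). H2-Eb1 differed by -0.29 (SE 0.14, interval -0.61 to 0.03, adjusted p = 0.381). All 4 were lower on each E2A-KO LMPP array than on each WT LMPP array, and 3 of the 4 intervals lay below 0. Without E2A-KO LMPP replicate 2 the difference was -0.24 in both Cd74 and H2-Ab1. Their intervals leave room for falls as large as 0.61 to 0.93 on the log2 scale, so the data do not show that they were equal.

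Of the remaining genes, H2-Ob was higher by 0.47 in E2A-KO LMPP (SE 0.19, interval 0.05 to 0.89, adjusted p = 0.287), and the difference was 0.71 without E2A-KO LMPP replicate 1 and 0.23 without replicate 2. The DO alpha chain H2-Oa differed by -0.23 (interval -0.64 to 0.18, adjusted p = 0.605), and it was 0.04 without E2A-KO LMPP replicate 1 and -0.51 without replicate 2. H2-DMa differed by 0.10 (interval -0.20 to 0.39, adjusted p = 0.788), by 0.18 without WT LMPP replicate 1 and by 0.02 without replicate 2. Ciita differed by -0.40 (SE 0.16, interval -0.76 to -0.04, adjusted p = 0.289), from values that were all below the array median, and by -0.15 with the mean of its probe sets. Whether H2-Ob differed from the classical chains in its response was not tested.

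**Figure D2:**
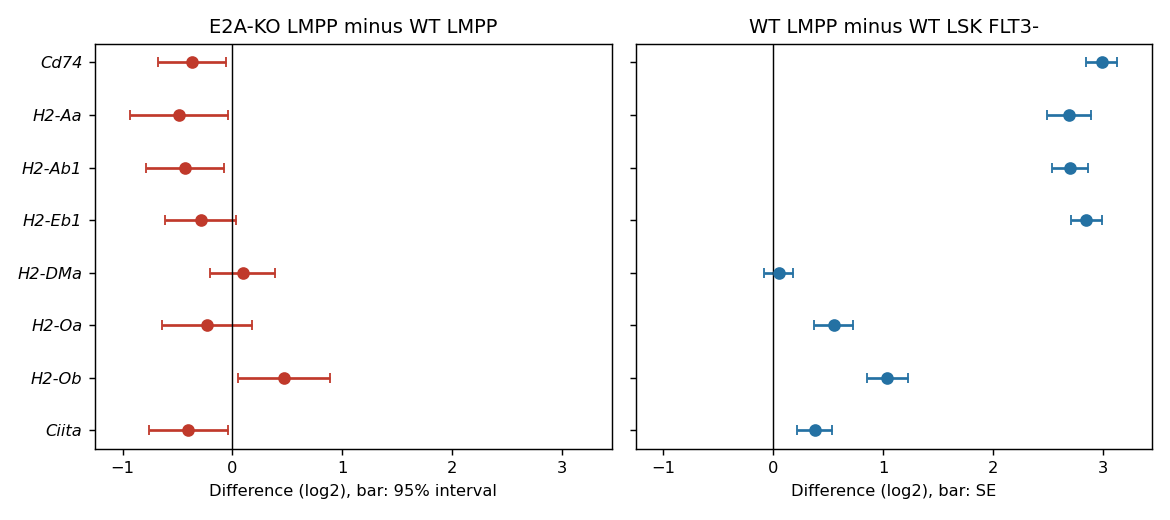
Differences in log2 intensity for the 8 genes, E2A-KO LMPP minus WT LMPP with 95% intervals on the left and WT LMPP minus WT LSK FLT3- with SE on the right, on the same scale. The left-hand values lie between -0.49 and 0.47, and the right-hand ones between 0.05 and 2.99.

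Several probe sets per gene gave the same direction at the stage comparison and unequal sizes. The 8 genes had 16 probe sets with a single symbol, and all 16 were higher in WT LMPP than in WT LSK FLT3-, 9 of them by at least 1 on the log2 scale. Nothing is read from these counts, since that comparison chose the genes. H2-Aa had 4, with stage differences of 2.69, 2.21, 0.89 and 2.92. The smallest of these came from a probe set with a mean of 3.27 in WT LMPP, below the array median. The 3 of H2-Ab1 gave 2.70, 1.41 and 2.42, and the 2 of H2-DMa gave 0.05 and 0.28.

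Between genotypes, 12 of the 16 probe sets were lower in E2A-KO LMPP and none passed the threshold over all probe sets. Those of H2-Aa differed by -0.49, -0.41, -0.18 and -0.24. Within H2-Ab1 the differences were -0.43, -0.05 and -0.87. The last of these was at 5.69 and 6.09 in E2A-KO LMPP, 6.82 and 6.70 in WT LMPP, and 4.26 and 4.41 in WT LSK FLT3-, with an adjusted p of 0.0528 over all probe sets. This H2-Ab1 probe set thus lay nearest to the threshold, while another of the same gene, at 4.65 and 5.26 in E2A-KO LMPP and 4.96 and 5.06 in WT LMPP, overlapped. The probe sets used for H2-Aa and H2-Ab1 are of kinds that can match several related transcripts, so part of their signal may come from other class II chains, which was not tested.

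**Figure D3:**
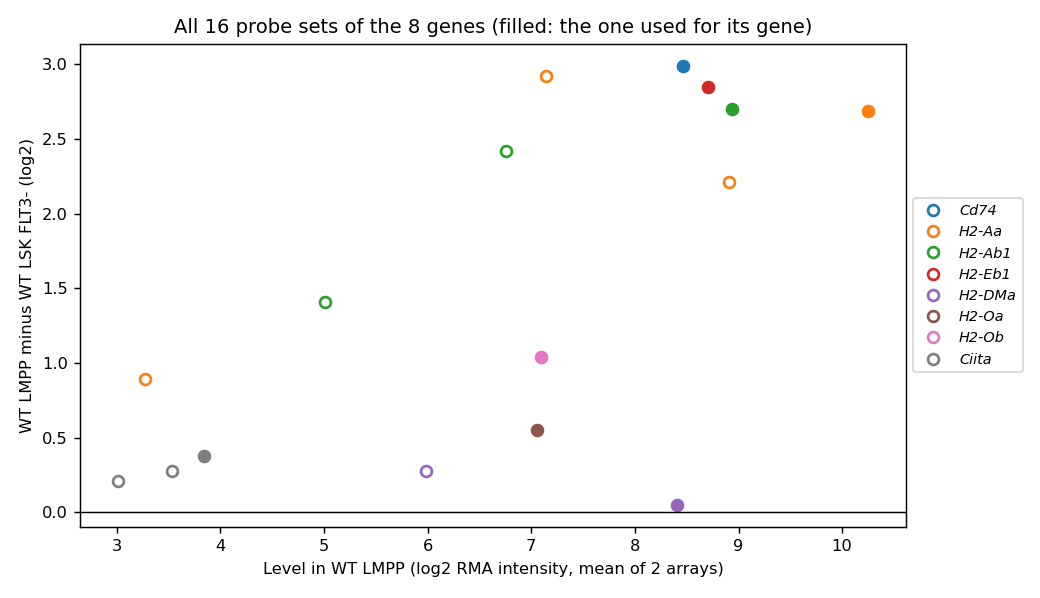
Stage difference (WT LMPP minus WT LSK FLT3-, log2) of all 16 probe sets against their mean level in WT LMPP (log2 RMA intensity), coloured by gene, with filled points for the probe set used for its gene. All points lie above 0, and the probe sets of Ciita and the dimmest of H2-Aa lie at the low end of the level axis.

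The other class II chains measured were H2-DMb2, H2-Ea and H2-Eb2. H2-DMb2, a beta chain of DM, averaged 5.55 ± 0.03 in E2A-KO LMPP, 5.52 ± 0.12 in WT LMPP and 4.72 ± 0.15 in WT LSK FLT3- (SD, n = 2 each), a rise of 0.80 in WT LMPP over WT LSK FLT3- (limma, adjusted p = 0.00328). H2-Ea, which RefSeq lists as a transcribed pseudogene and whose product mice of the C57BL/6 haplotype are known not to make, averaged 6.43 ± 0.26 in E2A-KO LMPP, 6.23 ± 0.08 in WT LMPP and 5.42 ± 0.02 in WT LSK FLT3-, a rise of 0.81 (adjusted p = 0.0048). H2-Eb2, a second E beta chain, differed by 0.28 (adjusted p = 0.243). Hence 2 of 3 measured chains rose at the stage comparison, where 10.4% of all genes rose and 23.7% fell. The sizes differed between probe sets. Others of H2-DMb2 alone gave 0.61 and 0.33, and others of H2-Ea gave 1.12 and 0.05. In E2A-KO LMPP against WT LMPP 0 of 3 chains passed the threshold, against 1.37% of all genes, with 0 at an unadjusted p under 0.05 in limma. The H2-Eb2 window also held the X and Y cores, 27 bases apart, while the windows of H2-DMb2 and H2-DMb1 did not hold the pair. H2-DMb1 was covered only by probe sets that also match H2-DMb2. These gave stage differences of 0.33 and 0.17. Between E2A-KO LMPP and WT LMPP they differed by -0.70 and -0.08, and neither passed over all probe sets.

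The genes of the set lie on 3 chromosomes, with Ciita on chromosome 16, Cd74 on chromosome 18 and the other 6 on chromosome 17. From H2-K1 to H2-Ea on chromosome 17, a stretch chosen after the values were seen, the RefSeq table lists 27 genes and pseudogenes, of which 20 were measured. Among the 14 measured genes that are not in the set, 2 rose in WT LMPP over WT LSK FLT3-, H2-DMb2 and H2-Ea, and 2 fell, H2-K1 and H2-Ke6. The shares over all genes were 10.4% higher and 23.7% lower. The call of H2-Ke6 (-0.41) was lost under 10 alternatives. None of the 14 passed the threshold in E2A-KO LMPP against WT LMPP by limma, where 1.37% of all genes did. Without adjustment, 2 of the 14 had p under 0.05, as did 2665 of all 18194 genes. Tap1, Tap2, Psmb8 and Psmb9, class I antigen-processing genes that lie between H2-DMb2 and H2-Ob, did not pass the test at the stage comparison, and the signs of Tap1, Tap2 and Psmb8 turned after quantile normalization.

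**Figure D4:**
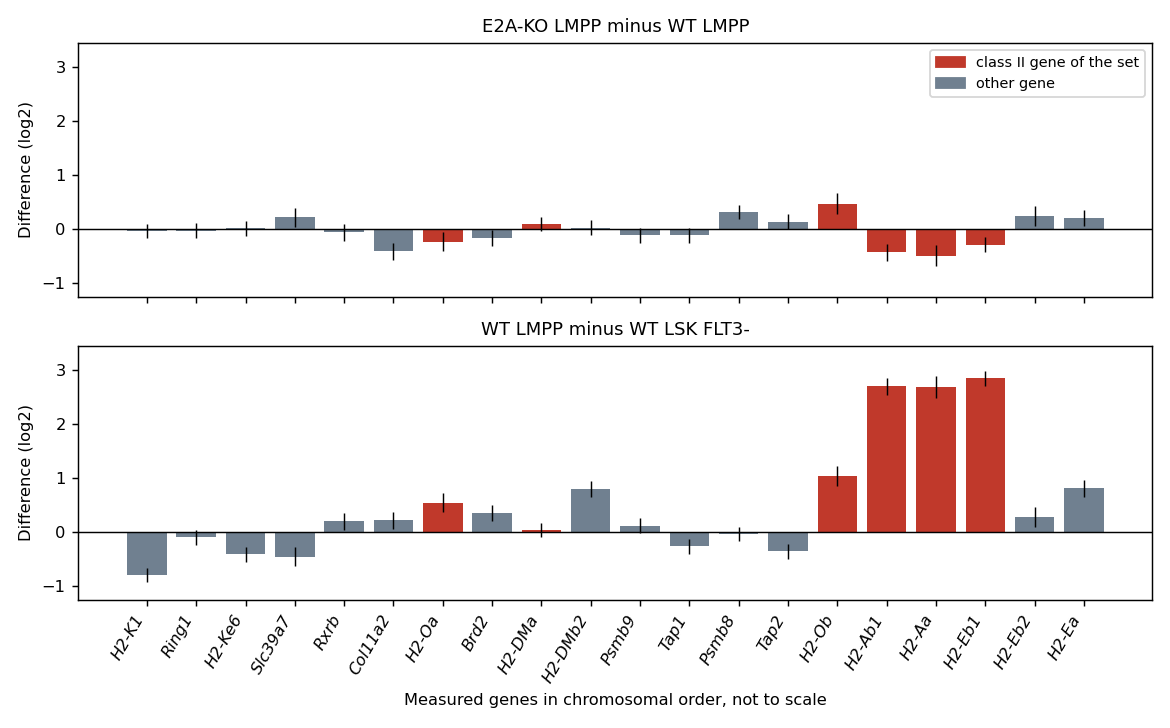
Difference in log2 intensity (bars, with SE) of the 20 measured genes from H2-K1 to H2-Ea in chromosomal order, for E2A-KO LMPP minus WT LMPP above and WT LMPP minus WT LSK FLT3- below, with the 6 class II genes of the set in red. H2-Ab1, H2-Aa and H2-Eb1 stand next to each other with the 3 tallest bars of the lower panel, and H2-Eb2, the next measured gene, is at 0.28.

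Of 12 measured transcription factors listed for class II regulation, 2 rose at the stage comparison, 3 fell and 7 did not pass. The shares over all genes were 10.4% higher and 23.7% lower. The median of the 12 was -0.11. Irf8, an interferon regulatory factor of dendritic cell and B cell development, rose by 1.93 (SE 0.13, adjusted p = 4.3e-05). Rfxap, a subunit of the RFX complex that binds the X box, fell by 1.14 (adjusted p = 0.000398), and Rfx5, its DNA-binding subunit, fell by 0.39 (adjusted p = 0.0489), a call lost under 9 alternatives. The rise of Irf4 (0.55) and the fall of Creb1 (-0.43) each lost the threshold under 7 alternatives. In E2A-KO LMPP against WT LMPP 0 of 12 passed the adjusted threshold, against 1.37% of all genes. An unadjusted p under 0.05 in limma was seen in 2 of the 12, and in 2665 of all 18194 genes. The widest differences between genotypes were those of Rfxank, the third RFX subunit, at -0.71 (adjusted p = 0.147; -0.22 with the mean of its probe sets), and Spi1, which encodes PU.1, at -0.44 (adjusted p = 0.226).

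Of 9 endosomal processing genes, 1 rose at the stage comparison and 2 fell, shares near those over all genes (10.4% and 23.7%). Ctss, cathepsin S, which trims the invariant chain, averaged 10.36 in E2A-KO LMPP, 10.70 in WT LMPP and 9.29 in WT LSK FLT3-, a rise of 1.40 in WT LMPP over WT LSK FLT3- (SE 0.14, adjusted p = 0.000242). Ctsl, cathepsin L, which does this in thymic epithelium, fell by 1.80 (SE 0.17, adjusted p = 0.000195), with means of 5.77 in E2A-KO LMPP, 6.23 in WT LMPP and 8.03 in WT LSK FLT3-. Ctsb, cathepsin B, fell by 0.74 (adjusted p = 0.00356). With the mean of its probe sets Ctsl fell by 0.65 (adjusted p = 0.0224), and Ctsb lost the threshold after quantile normalization (adjusted p = 0.0512). Between genotypes 0 of 9 passed the threshold, against 1.37% of all genes. An unadjusted p under 0.05 was seen in 3 of the 9, and in 2665 of all 18194 genes. Among the 3 were Ctsh, cathepsin H, at -0.68 in E2A-KO LMPP against WT LMPP (adjusted p = 0.092) and Ctsl at -0.45 (adjusted p = 0.265).

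Of 6 costimulatory genes, 2 rose in WT LMPP over WT LSK FLT3-, Cd80 (0.64) and Icosl (0.44), ligands of CD28 family receptors on T cells, but Cd80 lost the threshold under 5 alternatives and Icosl under 6. Cd274, which encodes the inhibitory ligand PD-L1, fell by 1.06 (adjusted p = 0.00187). Among all genes, 10.4% rose and 23.7% fell at this comparison. None of the 6 passed the threshold in E2A-KO LMPP against WT LMPP, where 1.37% of all genes did. Without adjustment, 2 of the 6 had p under 0.05, as did 2665 of all 18194 genes. Cd80 differed there by 0.46 and Cd86, the other ligand of CD28, by -0.37. The Cd86 difference was -0.68 without E2A-KO LMPP replicate 1 and -0.07 without replicate 2, and that of Cd80 was 0.08 with the mean of its probe sets.

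Of 13 measured class I presentation genes, 0 rose at the stage comparison and 7 fell, with a median of -0.37, where 10.4% of all genes rose and 23.7% fell. H2-D1 and H2-K1, class I heavy chains, fell by 0.98 (adjusted p = 0.000852) and by 0.79 (adjusted p = 0.00263), and the immunoproteasome subunit Psmb10 and the peptide trimmer Erap1 fell by 0.63 and by 0.57. Psmb10 and Erap1 each lost the threshold under 4 alternatives, and H2-K1 with the mean of its probe sets (-0.37, adjusted p = 0.0525), where H2-D1 fell by 0.45. After quantile normalization of the 6 arrays only 2 of the 13 fell, with a median of -0.16, and 2 did without WT LSK FLT3- replicate 1 or replicate 2, so this count rests on the scaling and on those arrays. In E2A-KO LMPP against WT LMPP 0 of 13 passed the threshold, against 1.37% of all genes. Without adjustment, 2 of the 13 had p under 0.05, as did 2665 of all 18194 genes. Nlrc5, the class I counterpart of Ciita, differed by -0.46 (adjusted p = 0.205) and Psmb8 by 0.31.

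**Figure D5:**
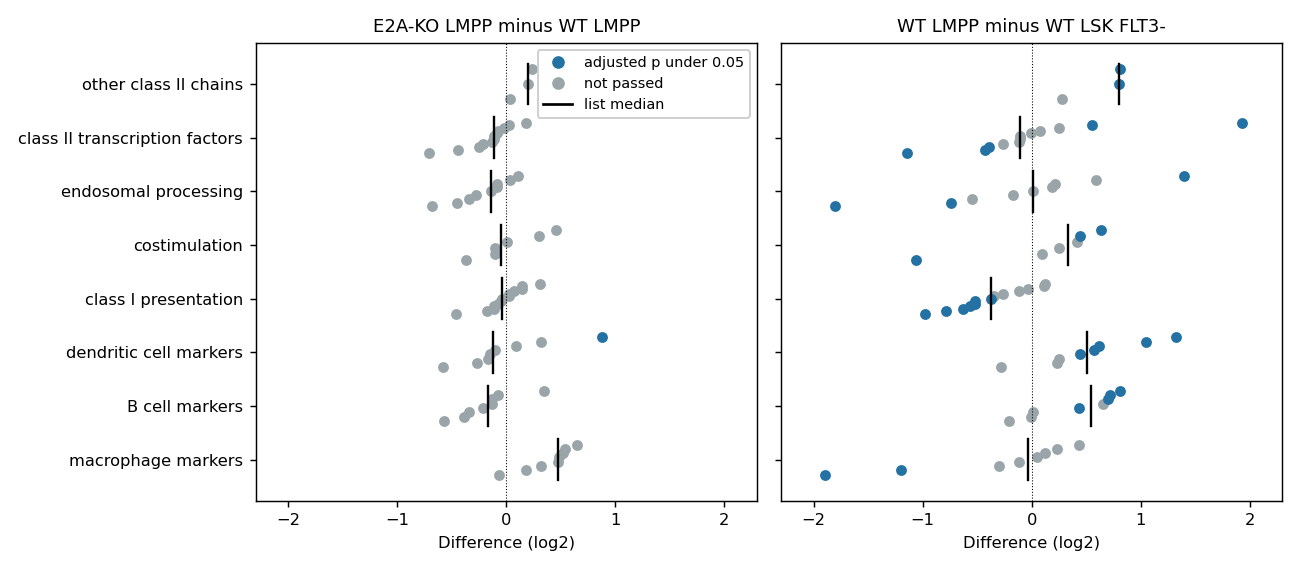
Differences in log2 intensity of the genes of 8 related lists (points, with a line at the list median), for E2A-KO LMPP minus WT LMPP on the left and WT LMPP minus WT LSK FLT3- on the right; blue points passed an adjusted p of 0.05. The left panel has 1 blue point, Clec10a, and the right panel has blue points on both sides of 0.

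Genes of mature cells that carry class II were measured beside the chains. Of 8 dendritic cell markers, 5 rose in WT LMPP over WT LSK FLT3-: Ccr7 (1.32), Itgax (1.05), Xcr1 (0.62), Zbtb46 (0.57) and Siglech (0.44). Among all genes, 10.4% rose and 23.7% fell there, and 1.37% were called in E2A-KO LMPP against WT LMPP. Itgax lost the threshold under 2 alternatives, Zbtb46 under 4, Xcr1 under 5 and Siglech under 6. Over all 8, the summed linear intensity was 192.0 to 209.2 in E2A-KO LMPP, 171.5 to 191.5 in WT LMPP and 127.2 to 134.2 in WT LSK FLT3-. Such a sum leans on the brightest probe sets, and the list's median of E2A-KO LMPP minus WT LMPP was -0.12. Of the 8, 3 were below the array median on all arrays: Batf3, Xcr1 and Cd209a. In E2A-KO LMPP 1 of 8 rose, Clec10a, a C-type lectin, by 0.88 (adjusted p = 0.0142), which lost the threshold under 6 alternatives. Their part in the class II differences was not tested.

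Of 8 B cell markers, 4 rose in WT LMPP over WT LSK FLT3-, Ebf1 (0.81), Cd79a (0.72), Blk (0.70) and Cr2 (0.43), and Blk lost the threshold under 2 alternatives, Cd79a under 1 and Cr2 under 6. The shares over all genes at this comparison were 10.4% higher and 23.7% lower. None of the B cell markers passed the threshold in E2A-KO LMPP against WT LMPP, where 1.37% of all genes did. An unadjusted p under 0.05 was seen in 4, among them Cd79a at -0.57 (adjusted p = 0.116) and Blk at -0.39. Of all 18194 genes, 2665 had such an unadjusted p. Over all 8, the summed intensity was 118.7 to 138.8 in E2A-KO LMPP, 144.9 to 146.5 in WT LMPP and 119.9 to 130.5 in WT LSK FLT3-. Ms4a1, which encodes CD20 of mature B cells, lay below the array median on all arrays, with group means between 2.89 and 3.01, as did Ebf1, Cr2 and Fcer2a. The part of B cell genes in the class II differences was not tested. Of 8 macrophage markers, 2 fell at the stage comparison, C1qb (-1.90, or -0.96 with the mean of its probe sets) and Mrc1 (-1.20), a share near the 23.7% of all genes. In E2A-KO LMPP against WT LMPP 0 of 8 passed the threshold, against 1.37% of all genes. An unadjusted p under 0.05 was seen in 3 of the 8, and in 2665 of all 18194 genes. The largest differences between these genotypes were those of Mrc1 (0.65, adjusted p = 0.0837) and Cx3cr1 (0.54), and the list's median was 0.47. Cx3cr1 lay below the array median on all arrays and differed by 0.095 with the mean of its probe sets. Summed macrophage marker intensity was 181.6 to 184.1 in E2A-KO LMPP, 125.0 to 155.0 in WT LMPP and 168.1 to 172.8 in WT LSK FLT3-.

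Of 4 listed plasma cell markers, Igha and Jchain were higher on the WT LSK FLT3- arrays than on the LMPP arrays, and Sdc1 was lower. Igha, the immunoglobulin A heavy chain, averaged 4.46 in E2A-KO LMPP, 4.26 in WT LMPP and 10.05 in WT LSK FLT3-, and Jchain, the joining chain of secreted antibody, averaged 3.31 in E2A-KO LMPP, 3.17 in WT LMPP and 7.94 in WT LSK FLT3-. The list's summed intensity was 284.7 to 326.2 in E2A-KO LMPP, 169.5 to 184.3 in WT LMPP and 1289.0 to 1447.9 in WT LSK FLT3-. Of its 4 genes, Igha and Jchain fell in WT LMPP against WT LSK FLT3-, and Sdc1, the syndecan of plasma cells, rose by 1.54. Among all genes, 23.7% fell and 10.4% rose at this comparison. Tnfrsf17, which encodes BCMA, did not pass and lay below the array median on all arrays. Its means were 3.53 in E2A-KO LMPP, 3.58 in WT LMPP and 3.38 in WT LSK FLT3-. Sdc1 also rose in E2A-KO LMPP over WT LMPP, by 0.94 (adjusted p = 0.0158), a call lost under 5 alternatives. The part of these transcripts in the class II values of WT LSK FLT3- was not tested.

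By the root mean square difference of centred log2 profiles over the 6 arrays, the 5 genes most like the mean of Cd74, H2-Aa, H2-Ab1 and H2-Eb1 were Slc35d3 (0.16), Wfdc18 (0.17), Plbd1 (0.26), Mpeg1 (0.29) and Ddx4 (0.30). The 4 chains themselves lay at 0.10 to 0.14 from their mean, and H2-Ob, H2-Oa, Ciita and H2-DMa at 0.75, 1.06, 1.16 and 1.20. Slc35d3, a nucleotide sugar transporter family member, averaged 8.12 in E2A-KO LMPP, 8.59 in WT LMPP and 5.94 in WT LSK FLT3-. The means of Plbd1 were 8.02 in E2A-KO LMPP, 8.54 in WT LMPP and 5.14 in WT LSK FLT3-. Those of Wfdc18 were 7.78 in E2A-KO LMPP, 7.80 in WT LMPP and 5.24 in WT LSK FLT3-. Ddx4, a germ cell RNA helicase, averaged 8.26 in E2A-KO LMPP, 8.21 in WT LMPP and 6.07 in WT LSK FLT3-, so its genotypes hardly differed. Mpeg1, the pore-forming protein perforin-2, averaged 8.61 in E2A-KO LMPP, 9.69 in WT LMPP and 6.56 in WT LSK FLT3-, and so had the widest genotype difference of the 5, at -1.08. With 2 arrays in each of 3 groups, likeness mostly reflects the difference between LMPP and LSK FLT3- arrays.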

How the data were processed

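Sorted bone marrow cells were measured on 6 Affymetrix 3′ arrays, 2 in each of 3 groups taken from the sample titles. A free-text label calls all samples WT LMPP and was set aside, because titles and source names differ. Per the labels' protocols, RNA was amplified in 2 rounds, which favours 3′ ends. The deposited values are linear probe set intensity values. Per the submitters' processing notes they come from RMA, and no source used here says whether all arrays were run together. From these deposited intensities log2 was computed here.

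Of 45101 probe sets, 34958 had 1 symbol. Each of 18194 genes was represented by its single-symbol probe set with the highest mean over the 6 arrays. limma 3.58.1 in R 4.3.3 fitted 1 mean per group to all 6 arrays (3 residual and 5.8 prior degrees of freedom), with two-sided p-values adjusted over all genes by Benjamini and Hochberg at 0.05. The fit was tested on simulated data. SDs are between arrays and SEs from the model. The number of arrays limits the precision. The genes described, the related gene lists and the tests were chosen with earlier results of these data known.

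Named genes are all 8 of the set with all their probe sets, the other class II chains, from each related list the up to 4 largest changes that passed in either comparison (2 where none did), and the 5 nearest in pattern. Genes outside this rule (Rfx5, Siglech, Ms4a1, Tnfrsf17, Tap1, Tap2, Psmb9, H2-Ke6, Batf3, Fcer2a and Cd209a) were named after their values were seen. Promoter windows are from RefSeq. Alternatives were a replicate block, a fit restricted to the 4 arrays compared, dropping the dimmest 40% of genes, averaging a gene's probe sets, quantile normalization, median centring, a robust fit with a variance trend, each array left out in turn, and, added after the data were seen, all probe sets as the unit. Figures were drawn with matplotlib 3.10.9.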

Additional observations from a re-analysis of the deposited data

How the results depend on the processing

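None of the 8 class II genes passed the threshold in E2A-KO LMPP against WT LMPP under any of the 14 alternatives. The count of all genes called there was 250, and became 445 with all probe sets as the unit, 89 with only the 4 arrays of the comparison, 548 with a variance trend and robust estimation, and 89 to 164 with 1 array left out. For WT LMPP against WT LSK FLT3-, 6198 became 10648 with all probe sets, 3496 with quantile normalization and 2370 to 6410 with 1 array left out. E2A-KO LMPP against WT LSK FLT3- gave 6822, then 12853, 3617 and 2944 to 7515. Calls higher in WT LMPP than in WT LSK FLT3- were 30.5% of all calls, 47.4% after quantile normalization and 17.8% after median centring, which moved the median of all genes to -0.12. The same shares for E2A-KO LMPP over WT LSK FLT3- were 29.4%, 44.0% and 14.6%. With the replicate block the 3 counts were 200, 5914 and 6535. Replicate numbers showed no pairing in the values: differences between replicates 1 and 2 correlated between groups at 0.023, -0.042 and -0.022 across genes. This cannot tell whether arrays of the same number were handled together.

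Signs turned for the following differences of the genes followed across the alternatives. H2-Oa in E2A-KO LMPP against WT LMPP ranged from -0.507 to 0.042 with 1 array left out. H2-DMa in WT LMPP against WT LSK FLT3- was -0.055 with median centring and -0.029 to 0.132 with 1 array left out. Ciita in E2A-KO LMPP against WT LSK FLT3- was 0.136 with the mean of probe sets and -0.186 to 0.146 with 1 array left out. H2-Ea in E2A-KO LMPP against WT LMPP was -0.05 with the mean of probe sets. In WT LMPP against WT LSK FLT3-, the mean of probe sets and quantile normalization gave 0.184 and 0.24 for Psmb8 (-0.10 to 0.048 with 1 array left out) and 0.042 and 0.074 for Tap1, and quantile normalization gave 0.017 for Tap2. In that comparison the mean of probe sets also moved Ebf1 to 0.49, Sdc1 to 0.93, Cd80 to 0.10 and Creb1 to -0.08. The cause was not tested. A lone array in a group was assumed to vary like the other groups. The 8 genes were not tested against WT LSK FLT3-. There Cd74, H2-Aa, H2-Ab1 and H2-Eb1 kept differences of at least 1.73 in both LMPP groups under these alternatives. This holds for the probe set used or the mean of a gene's probe sets. Single other probe sets gave less, down to 0.71 in E2A-KO LMPP and 0.89 in WT LMPP for 1 of H2-Aa.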
